A study of Homo sapiens with 2 samples.

Results

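Some cell barcodes in these libraries carried mostly RNA made inside mitochondria. Members were chosen by their measured mitochondrial share: a barcode was one where over 50% of its UMIs (unique molecular identifiers, counted RNA molecules) came from the 13 mitochondrially encoded genes, whose symbols begin with MT-, with no lower bound on detected genes. There were 422 such barcodes among 5401 in all: 172 of 3642 in the control library and 250 of 1759 in the 4B4 library. They were compared with barcodes of the same library at 20% or less (the reference): 3425 in the control and 1403 in the 4B4 library. The barcodes between these limits, 45 and 106, are given where they help.

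Both samples were HT1080, an established human fibrosarcoma cell line labelled wildtype, grown as spheroids in collagen gels for 72 h. About 50 spheroids, each started from 2000 cells, went into 500 µl of collagen. The 4B4 sample was cultured with 2 µg/ml of the 4B4 antibody, which blocks β1 integrin, a subunit of collagen and fibronectin receptors; the control label names no other antibody. Cells were freed with collagenase, followed by trypsin, before 10x Genomics 3′ version 3 libraries were made from polyadenylated RNA. There was 1 library per group, so no difference has a replicate check or a test, and effects of treatment and of library cannot be told apart. Intervals are exact, at 95%, and cover counting error only.

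The mitochondrial genome encodes subunits of the respiratory chain and of ATP synthase, and its messages are made, kept and translated within the organelle. All other mitochondrial proteins, and the rest of the cell's proteins, come from nuclear genes, most of whose messages lie in the cytoplasm, while some long noncoding RNAs stay in the nucleus. In droplet data a high mitochondrial share is commonly used as a filter, because a cell with a leaking membrane can lose cytoplasmic RNA while keeping its mitochondria; cells rich in mitochondria, free organelles and debris can also give one.

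Members made up 4.72% of control barcodes (4.06% to 5.46%) and 14.2% of 4B4 barcodes (12.6% to 15.9%). The share was higher in the 4B4 library at every threshold computed: over 80% it was 4.26% and 11.1%, and over 90% it was 3.76% and 9.10%. Among barcodes with at least 1000 detected genes, 7 of 3448 control barcodes (0.203%, 0.0817% to 0.418%) and 35 of 1519 4B4 barcodes (2.30%, 1.61% to 3.19%) were members. So 4.07% of control members and 14.0% of 4B4 members would pass such a floor on detected genes. The reference barcodes were also deeper in the 4B4 library, with a median of 67855 UMIs against 32805, and how depth and the calling of cells bear on the shares was not tested.

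Most members lay far above the threshold. In the control library 137 of 172 (79.7%) were over 90%, and in the 4B4 library 160 of 250 (64.0%). The 4B4 library also held more barcodes of intermediate share: 106 (6.03%, 4.96% to 7.24%) between 20% and 50%, against 45 (1.24%, 0.903% to 1.65%) in the control library. In both libraries few barcodes were near the threshold. Within 10 percentage points above it there were 4 control and 10 4B4 barcodes, and within 10 points below it 11 and 14. The nearest members were at 51.3% (3924 nuclear-encoded UMIs) in the control and 52.3% (6762) in the 4B4 library. The nearest barcodes outside were at 49.8% (1174 nuclear-encoded UMIs) and 48.8% (5997).

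**Figure D1:**
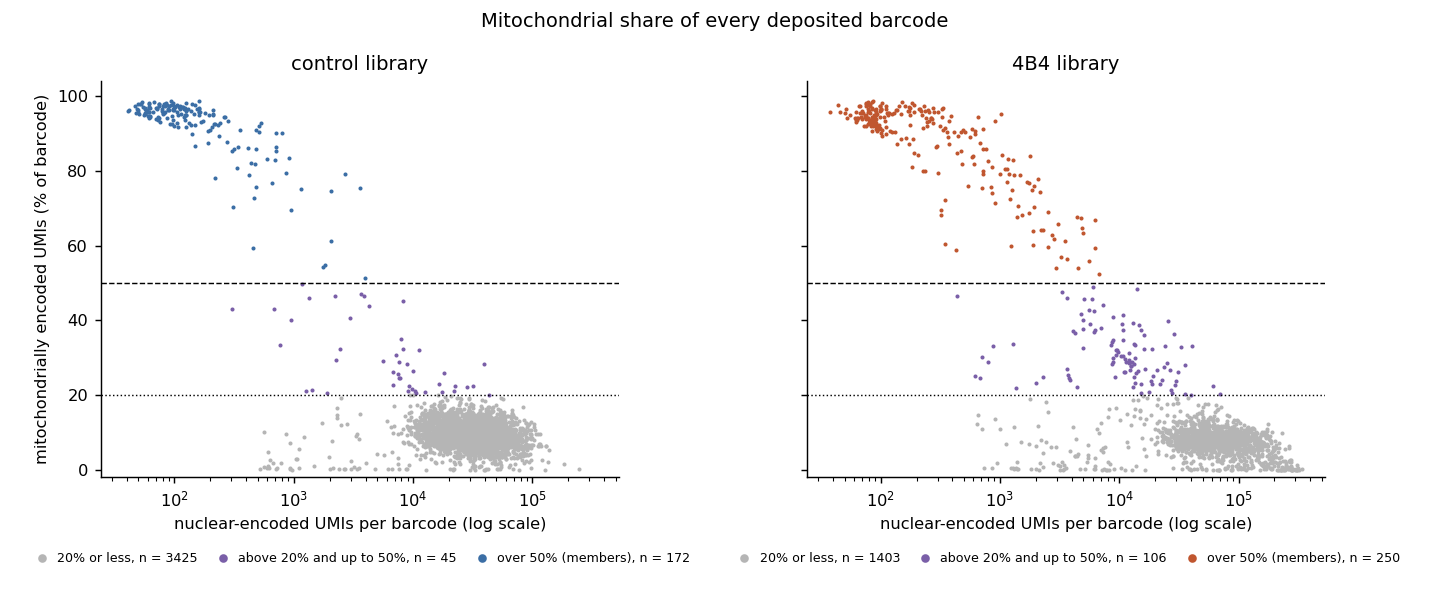
Mitochondrially encoded UMIs as a percentage of each barcode's UMIs (vertical axis) against its nuclear-encoded UMIs (horizontal axis, log scale), 1 point per barcode, for the control (left) and 4B4 (right) libraries. Dashed and dotted lines mark 50% and 20%; most members sit over 90%, where the median is 97 nuclear UMIs in each library, and a tail leads from them to the reference barcodes that is fuller in the 4B4 library.

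Members differed from reference barcodes mainly in nuclear-encoded RNA, and much less in the amount of mitochondrial RNA. The median control member had 2294 mitochondrial UMIs (quartiles 1572 and 3576) against 2827 in the reference, a ratio of 1.23. In the 4B4 library the medians were 2799.5 (quartiles 1268 and 4626) and 4677, a ratio of 1.67. Nuclear-encoded UMIs had medians of 118.5 and 29830 in the control library, 252-fold apart, and of 184 and 62022 in the 4B4 library, 337-fold apart. The rule chose barcodes by the ratio of these counts, so the gap is a description and not a finding. Whether a member is a whole cell or part of one cannot be read from these counts.

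In total, members held 0.417% of the control library's UMIs but 4.03% of its mitochondrial UMIs, and 0.850% and 9.36% in the 4B4 library. Their nuclear-encoded UMIs numbered 49547 and 166204, from 9824 and 13525 different nuclear genes. At an equal depth of 100 nuclear UMIs the medians of detected genes were 95 and 93 in the control library, and 93 and 92 in the 4B4 library. Nearly every UMI was then of a different gene, so this count could hardly differ between sets and says little about their makeup. Thinning left out 72 and 86 members that were too shallow. Unthinned, the medians over all barcodes of a set were 110 and 6341 nuclear genes in the control library, and 163.5 and 8410 in the 4B4 library.

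The libraries shared 2 barcode sequences. Both were members in the 4B4 library, at 90% and 91.1% mitochondrial, and reference barcodes in the control library, at 11.9% and 7.28%. Without them the counts of genes given below were the same.

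The mitochondrial RNA itself was composed differently in members. Summed over barcodes, all 13 genes differed between members and reference in the same direction in both libraries, each with a counting interval that excluded equal shares. Of the complex IV genes, MT-CO1 took 13.7% of mitochondrial UMIs in control members against 17.8% in the reference (log2 ratio -0.37), and 17.0% against 20.7% in the 4B4 library (-0.29). MT-CO2 took 20.7% against 23.3% (-0.17) and 21.6% against 25.3% (-0.23). MT-CYB, the mitochondrial subunit of complex III, took 9.53% against 11.5% (-0.27) and 9.19% against 11.7% (-0.35). MT-ND4 of complex I was lower by less, at log2 ratios of -0.18 and -0.08.

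The other 9 mitochondrial genes took larger shares in the sums over members. MT-ATP8, a small subunit of ATP synthase, took 0.741% against 0.401% (log2 ratio 0.89, 0.84 to 0.93) in the control library and 0.763% against 0.423% (0.85, 0.81 to 0.89) in the 4B4 library. MT-ATP6, whose message overlaps that of MT-ATP8, took 16.6% against 12.9% (0.37) and 15.2% against 10.8% (0.49). MT-CO3, the third complex IV gene, took 18.4% against 15.8% (0.23) and 15.9% against 13.2% (0.27), so genes of complex IV did not move together. MT-ND4L had log2 ratios of 0.72 and 0.89, and MT-ND6, the one protein gene on the other strand, of 0.83 and 0.76. MT-ND1, MT-ND2, MT-ND3 and MT-ND5, also of complex I, ranged from 0.07 to 0.43 in the control library and from 0.13 to 0.42 in the 4B4 library. Reads from the overlapping pairs of MT-ATP8 with MT-ATP6 and of MT-ND4L with MT-ND4 may be split uncertainly between the genes.

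**Figure D2:**
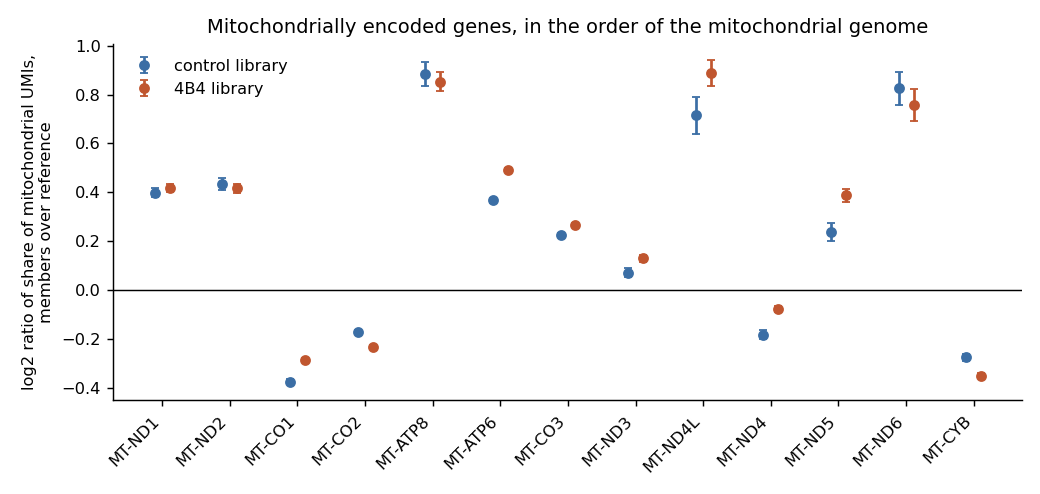
Log2 ratio of each mitochondrially encoded gene's share of mitochondrial UMIs, members over reference, for the control (blue) and 4B4 (orange) libraries, with 95% counting intervals. MT-CO1, MT-CO2, MT-ND4 and MT-CYB lie below 0 in both libraries and the other 9 genes above it.

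For 3 neighbouring genes the share also differed by range of the barcode's mitochondrial share, barcodes outside the rule included. MT-ATP8, MT-ATP6 and MT-CO3 together took 26.1% of mitochondrial UMIs in control barcodes at up to 5%, 28.6% at 5 to 10%, 29.7% at 10 to 20%, 31.9% at 20 to 50%, 32.6% at 50 to 80%, 35.3% at 80 to 90% and 36.3% above 90%. In the 4B4 library the same ranges gave 20.5%, 24.5%, 25.5%, 27.1%, 29.7%, 32.5% and 32.8%. Per barcode, the quartiles of control members were 34.6% and 39.0% and those of reference barcodes 26.4% and 31.9%, while in the 4B4 library they were 30.8% and 36.8%, and 21.0% and 27.2%. The ranges between the quartiles thus did not overlap in either library.

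The nuclear-encoded RNA was compared as levels, in UMIs per 1000000 nuclear-encoded UMIs (UPM), summed over the barcodes of a set. A gene was tested where members or reference reached 605 UPM in either library, the level that gives 30 expected UMIs in the smaller member set, and was called at a ratio of at least 2. Of 302 such genes, 67 (22.2%) were higher and 74 (24.5%) lower in control members. In 4B4 members 68 (22.5%) were higher and 198 (65.6%) lower. Both libraries shared 56 of the higher genes (18.5% of those tested) and 72 of the lower ones (23.8%), and at this ratio no gene was called in opposite directions. Among the calls 47.5% in the control and 25.6% in the 4B4 library were higher. The median log2 ratio was -0.67 in the control and -1.30 in the 4B4 library.

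How a gene came to be tested bears on these counts. Of the 302 genes, 83 reached the floor only in members, 90 only in the reference and 129 in both. Of the 56 genes higher in both libraries 53 reached it only in members, and of the 72 lower ones 30 reached it only in the reference, so much of their direction was fixed by the choice. With genes chosen on the reference level alone (219 genes), 4 (1.83%) were higher in each library, 3 (1.37%) of them shared, and 74 (33.8%) and 198 (90.4%) were lower, 72 (32.9%) of them shared. The higher ones, named after their values were seen, were MALAT1, NEAT1 and FNDC3B in both libraries, FN1 in the control and AC068672.2 in the 4B4 library. Counts and medians over tested genes are therefore descriptions, and what is said below of a list rests on sums over all its genes, which need no floor.

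The split between higher and lower depends on the scaling. TMM scaling (trimmed mean of M-values, edgeR) shifted all log2 ratios by -0.84 in the control and -0.99 in the 4B4 library, and left 3.52% and 5.99% of calls higher. Without the ribosomal protein genes in the total the shifts were -0.20 and -0.26, and 30.6% and 21.4% of calls were higher. The ratios below are therefore relative to the nuclear-encoded total of each set.

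These sums rest on few barcodes, and members of different mitochondrial share differed in what they held. In the control library 17 barcodes at 50 to 80% supplied 48.2% of the members' nuclear UMIs, and in the 4B4 library 55 such barcodes supplied 72.5%. The 137 and 160 members above 90% supplied 36.2% and 15.6%. Taking only members over 80%, 14 genes in the control and 9 in the 4B4 library were lower, with 2 shared, and 30 and 22 were higher, with 18 shared, so that 68.2% and 71.0% of calls were higher. With each barcode weighing the same, 63.3% and 60% were. Without the 5% of members with the most nuclear UMIs, which held 40.4% and 37.3% of them, 33 and 40 genes were higher and 17 and 123 lower.

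Messages of the cytosolic ribosomal proteins, which are short, abundant and translated in the cytoplasm, showed this clearly. They took 11.6% of nuclear UMIs in control members against 22.9% in the reference, and 7.91% against 22.9% in the 4B4 library. All 79 were tested: with a ratio of 1.5 or more and an interval on the same side, none was higher, and 73 in the control and all 79 in the 4B4 library were lower. Their median log2 ratio was -0.95 and -1.51, against -0.67 and -1.30 over all tested genes. By that rule 55% and 71.9% of all tested genes were lower, and 25.2% and 23.5% higher. RPL7A, of the large subunit, was at 1272 UPM in control members and 3243 in the reference (log2 ratio -1.35), and at 848 and 2906 in the 4B4 library (-1.78).

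By range, the ribosomal protein share was lowest at 50 to 80% in the control library and from 20 to 80% in the 4B4 library, and not in the most mitochondrial barcodes. In the control library it was 15.2% at 20 to 50%, 6.11% (5.80% to 6.43%) at 50 to 80%, 14.96% at 80 to 90% and 17.4% (16.8% to 18.0%) above 90%. In the 4B4 library it was 3.90%, 5.09% (4.96% to 5.22%), 14.1% and 16.3% (15.8% to 16.8%). The median 4B4 barcode above 90% held 16.5% and the median reference barcode 21.9%. In this share the most mitochondrial barcodes were thus much nearer the reference than members at 50 to 80%. That does not describe the rest of their nuclear remainder, in which other lists and genes given below differed from the reference.

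**Figure D3:**
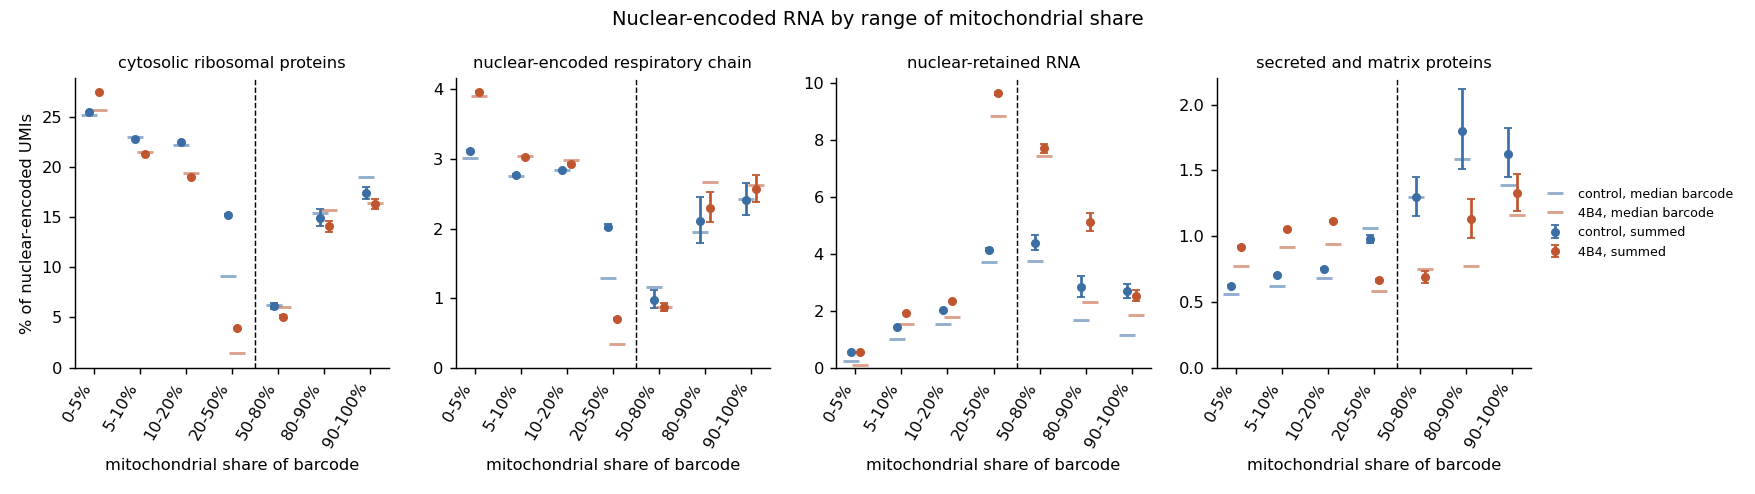
Share of nuclear-encoded UMIs from 4 gene lists (panels, each with its own vertical axis from 0) by range of the barcode's mitochondrial share, for the control (blue) and 4B4 (orange) libraries. Points are sums over barcodes with 95% counting intervals, bars are the median barcode, and the dashed line marks 50%; ribosomal protein messages are lowest at 50 to 80% in the control library and from 20 to 80% in the 4B4 library.

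Nuclear-encoded genes of the respiratory chain, whose proteins join the mitochondrial ones in the inner membrane, also took a smaller share of members' nuclear RNA. The sum over all 77 listed was 1.67% of nuclear UMIs against 2.83% in the control library (log2 ratio -0.76, -0.86 to -0.66), and 1.31% against 3.31% in the 4B4 library (-1.34, -1.40 to -1.28). Of the 19 tested, 17 reached the floor only in the reference, which leaves little to read from single calls. By these, 15 in the control and all 19 in the 4B4 library were lower, where 55% and 71.9% of all tested genes were. Their medians were -0.89 and -1.44, against -0.67 and -1.30 over all tested genes. COX6A1, a nuclear subunit of complex IV, was at 161 and 555 UPM (-1.78) in the control library, from 8 UMIs in members, and at 162 and 683 (-2.07) in the 4B4 library. COX7A2 and COX7C, of the same complex, had log2 ratios of -1.42 and -1.31 in the control and -1.79 and -1.51 in the 4B4 library. NDUFS5 of complex I had -1.72 and -1.25. Among the ranges of members, the list's share was lowest at 50 to 80%, at 0.976% and 0.873%, and was 2.41% and 2.57% above 90%.

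Other nuclear genes for mitochondrial functions were too weakly represented for many single calls. No mitochondrial ribosomal protein gene of 76 reached the floor; their sum was 0.583% against 0.920% in the control library (log2 ratio -0.66, -0.83 to -0.49) and 0.421% against 0.936% (-1.15, -1.26 to -1.05) in the 4B4 library. TOMM7, of the outer-membrane import pore, was at 505 and 543 UPM in the control library (-0.10, not called) and at 205 and 664 (-1.70) in the 4B4 library. CHCHD2, which works in mitochondria and the nucleus, and C1QBP, a matrix protein, were lower in both (-1.42 and -1.53; -1.40 and -1.79). TFAM, which packages mitochondrial DNA, had 3 and 6 UMIs in members, at log2 ratios of -1.01, not called, and -1.58.

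RNA that stays in the nucleus was higher in members. MALAT1, a long noncoding RNA of nuclear speckles, was at 30718 UPM in control members and 13354 in the reference (log2 ratio 1.20, from 1522 UMIs), and at 59283 and 13493 in the 4B4 library (2.14, from 9853 UMIs). NEAT1, the scaffold of paraspeckles, was at 3391 and 1447 UPM (1.23), and at 4543 and 1483 (1.61). The sum over all 11 listed nuclear-retained RNAs, most of it MALAT1, was 3.53% of nuclear UMIs against 1.54% in the control library (log2 ratio 1.20, 1.13 to 1.27) and 6.59% against 1.55% in the 4B4 library (2.09, 2.06 to 2.11). FTX and MIR100HG reached the floor only in 4B4 members, and had log2 ratios of 1.67 and 1.00 in the control and 2.64 and 1.89 in the 4B4 library. FTX in the control library rests on 15 UMIs in 9 barcodes, and it was -1.29 over members above 80%.

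MALAT1 also followed the ranges. In the control library its share of nuclear UMIs was 1.34% in the reference, 3.69% at 20 to 50%, 3.87% at 50 to 80%, 2.40% at 80 to 90% and 2.30% above 90%. In the 4B4 library it was 1.35%, 8.55%, 6.96%, 4.74% and 2.06%. Above 90% the median control barcode held 0.885%, against 0.882% in the reference, and the median 4B4 barcode 1.34% against 0.881%. Of the members above 90%, 86 of 137 in the control library (62.8%) and 123 of 160 in the 4B4 library (76.9%) had a MALAT1 UMI, at a median depth of 97 nuclear UMIs in each. Thinned to 100 nuclear UMIs, 75% of the 100 control members deep enough for this and 54.7% of reference barcodes had one. In the 4B4 library 88.4% of 164 such members and 51.6% of reference barcodes did. The 72 control and 86 4B4 members that were too shallow are not covered by these values. These cultures hold a single cell line, so no cell type without the gene could serve as background.

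Summed over members, long genes took a larger share of nuclear RNA than in the reference. Barcodes at 50 to 80% supplied 48.2% of control and 72.5% of 4B4 members' nuclear UMIs. These sums therefore do not show whether the difference holds in the more mitochondrial members. By genomic span (GENCODE release 29), and over all nuclear genes with no floor, those spanning at least 100 kb held 27.1% of members' nuclear UMIs against 13.6% in the reference, and 34.6% against 12.6% in the 4B4 library. Genes annotated as long noncoding held 8.43% against 4.43%, and 12.9% against 4.25%, MALAT1 included. Of the 67 tested genes of at least 100 kb, 60 reached the floor only in members, so the single tested genes do not show this. Among 1474 genes chosen on a reference level of at least 100 UPM in both libraries, a choice made after seeing the data, the summed log2 ratio over the quintile with the longest spans, from 75617 bp up, was 0.65 (0.61 to 0.69) in the control and 0.99 (0.97 to 1.01) in the 4B4 library. The other quintiles had -0.87, -0.41, -0.50 and -0.27 from the shortest up in the control library, and -1.49, -0.50, -0.92 and -0.57 in the 4B4 library; the second holds MALAT1. Long genes consist mostly of introns, and whether reads in introns were counted is not given in the sources used here.

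**Figure D4:**
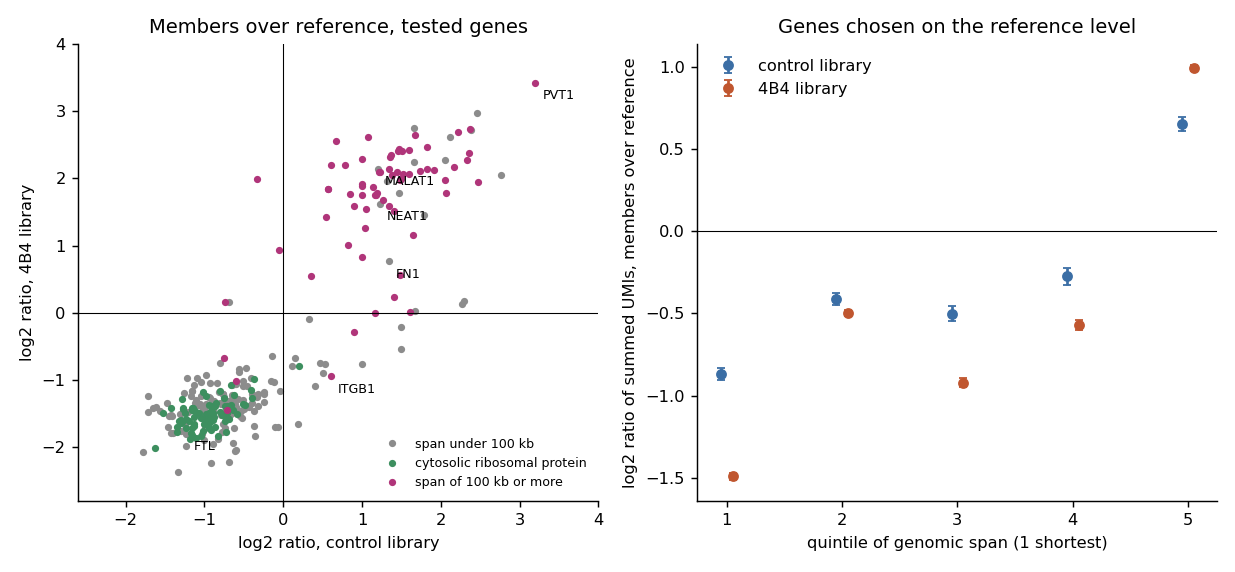
Left, log2 ratio of members over reference in the control (on the horizontal axis) and 4B4 (vertical) libraries for the 301 tested genes with a known span, coloured by kind; MTRNR2L12 lies beyond the axes, and most genes at the upper right reached the floor only in members. Right, log2 ratio of UMIs summed over quintiles of genomic span, from 1 (shortest) to 5 (longest), with 95% counting intervals, for genes chosen on the reference level alone; of these quintiles only the longest lies above 0 in each library.

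Among genes that kept the sign of their ratio in both libraries under all the settings compared, those named here had the largest ratios. All of them reached the floor only in members, so that each was above the reference in at least 1 library follows from how it was chosen, and the values are a description. PVT1, a long noncoding RNA, was at 1332 UPM in control members and 145 in the reference (log2 ratio 3.20) and at 915 and 85.6 in the 4B4 library (3.42); 1 barcode held 33 of its 152 UMIs in 4B4 members. LUC7L3, RBM25, PNN and ARGLU1 encode proteins tied to splicing. LUC7L3 was at 868 and 158 UPM (2.45), and at 1089 and 139 (2.97). RBM25 had 2.38 and 2.71, PNN 2.05 and 2.27, and ARGLU1 2.11 and 2.62. ANKRD11, a chromatin regulator, had 2.35 and 2.38, PRRC2C 2.17 and 2.16, RBM6 2.37 and 2.73, TRIO, a guanine nucleotide exchange factor, 2.33 and 2.27, and PLXNA4, a semaphorin co-receptor, 2.22 and 2.69. SNHG25, a snoRNA host gene, had 2.76 and 2.06.

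In the most mitochondrial barcodes these genes rest on few molecules. Above 90% LUC7L3 had a log2 ratio of 2.58 in the control and 2.05 in the 4B4 library, PRRC2C 1.97 and 2.17, ARGLU1 1.88 and 2.68, and SNHG25 3.55 and 3.29. Each of these values rests on 12 to 29 UMIs. TRIO was 0.16 there in the control library, from 5 UMIs.

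MTRNR2L12 had the largest ratio of the named genes and has a close mitochondrial relative. It is a nuclear gene on chromosome 3 (GRCh38, positions 96617188 to 96618236, minus strand, GENCODE release 29), a copy of the mitochondrial 16S ribosomal RNA gene MT-RNR2. Over 1048 aligned positions the transcripts were 95.0% identical. The stretch that GENCODE annotates as coding, for a humanin-like peptide, and the matching stretch of MT-RNR2 are shown because they make plain how alike the genes are; capitals mark the 2 positions of 75 that differ.
MTRNR2L12 (chr3:96617199-96617273, minus strand): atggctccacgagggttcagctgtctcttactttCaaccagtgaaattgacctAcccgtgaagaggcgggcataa
MT-RNR2 (chrM:2633-2707, plus strand): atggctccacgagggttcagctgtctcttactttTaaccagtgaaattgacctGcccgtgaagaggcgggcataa

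MTRNR2L12 was at 626 UPM in control members and 2.69 in the reference (log2 ratio 7.86), and at 379 and 2.26 in the 4B4 library (7.39), from 31 and 63 UMIs in members. In the control library it was at 126 UPM at 50 to 80%, 258 at 80 to 90% and 1449 above 90%, from 3, 2 and 26 UMIs. The 4B4 levels were 133, 505 and 1424 UPM, from 16, 10 and 37 UMIs, so most of its molecules lay above 90% in each library. Set against mitochondrial UMIs the ratio was smaller: 63.8 UMIs per 1000000 mitochondrial UMIs in control members against 27.3 in the reference (ratio 2.34, 1.56 to 3.39), and 74.1 against 32.2 in the 4B4 library (2.30, 1.71 to 3.04). MT-RNR2 is not among the genes of the files, and whether reads of the mitochondrial RNA were counted for its nuclear copy was not tested. Of the 11 MTRNR2L genes in the files, the other 10 had at most 3 UMIs each in the members of a library.

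Iron-storage genes were among those lower in both libraries. The iron-storage genes FTL and FTH1 were at 5207 and 1978 UPM in control members against 12240 and 4018 in the reference (log2 ratios -1.23 and -1.02), and at 4753 and 2407 against 16616 and 7161 in the 4B4 library (-1.81 and -1.57). Over all 22 genes of the iron and oxidative response list the summed log2 ratios were -1.05 (-1.16 to -0.94) and -1.53 (-1.59 to -1.47). All 7 tested genes of the list were lower in both libraries, where 55% and 71.9% of all tested genes were. Of these 7, 2 reached the floor only in the reference. Their medians over all 7 were -1.02 and -1.44, against -0.67 and -1.30 over all tested genes. Among the 7 were PRDX1, a peroxiredoxin (-1.65 and -1.42), and MT1X, a metallothionein (-1.24 and -1.99). GSTP1, a glutathione transferase, was lower too (-1.61 and -1.40), as were TPT1 (-1.41 and -1.53), the proteasome subunit PSMB1 (-1.48 and -1.35), COMMD6 (-1.57 and -1.46), C19orf53 (-1.33 and -2.37) and the histone genes HIST1H4C (-1.47 and -1.70) and H3F3B (-1.45 and -1.54). Above 90% FTL was at 8582 UPM in the control and 11663 in the 4B4 library, with a log2 ratio of -0.51 in each.

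Cytoskeleton and glycolysis genes took smaller shares of nuclear RNA in members. The sum over all 31 cytoskeleton genes had log2 ratios of -0.62 (-0.73 to -0.52) and -1.13 (-1.21 to -1.06), and that over all 19 glycolysis genes -0.42 (-0.56 to -0.28) and -1.13 (-1.22 to -1.04). For comparison, the 1474 genes chosen on a reference level of at least 100 UPM had summed log2 ratios of -0.41 and -0.61. The control glycolysis sum was thus near that of these genes at large. Single calls are read against all tested genes, of which 55% and 71.9% were lower, with medians of -0.67 and -1.30. Of 12 tested cytoskeleton genes, 8 in the control and 12 in the 4B4 library were lower, among them VIM, the intermediate filament vimentin (-0.99 and -1.46), and TUBB (-0.99 and -1.72). ACTB, cytoplasmic actin, was -0.33 in the control library, not called, and -1.39 in the 4B4 library. S100A6 and LGALS1, a calcium-binding protein and a galectin, were at -1.03 and -0.94 in control members and -1.80 and -1.61 in 4B4 members. The translation factor EEF1A1 was at -0.50 and -1.44. Of 6 glycolysis genes, 3 and 6 were lower, and the medians were -0.59 and -1.04 there and -0.77 and -1.38 for cytoskeleton genes. GAPDH was at 2079 and 3431 UPM in the control library (-0.72), and at 1450 and 4274 (-1.56) in the 4B4 library. Above 90% the log2 ratio of GAPDH was -0.09 and -0.39.

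Messages of secreted and matrix proteins, which are translated at the endoplasmic reticulum, were summed as a list. Their summed share of nuclear RNA was larger in control members than in the reference. In 4B4 members it was smaller, a direction that TIMP1 alone set. The sum over all 39 listed genes was 1.49% against 0.712% in the control library (log2 ratio 1.07, 0.96 to 1.17), and 0.840% against 1.02% in the 4B4 library (-0.28, -0.36 to -0.20). In the 4B4 library TIMP1 alone held 486365 of the list's 1110497 reference UMIs, but 235 of its 1396 UMIs in members. The lower 4B4 sum therefore comes from this gene and does not describe the list's other genes. Leaving TIMP1 out, the list's remaining UMIs were a larger share in 4B4 members than in the reference. Above 90% the sums were 1.63% and 1.33% of nuclear UMIs, above the reference in each library. Of the 6 genes tested, SPARC, COL4A1, COL4A2 and LOXL2 reached the floor only in control members and so could not be below the reference there; the values of single genes are a description.

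FN1 was at 1897 UPM in control members and 748 in the reference (log2 ratio 1.34), and at 2154 and 1268 in the 4B4 library (0.76), where TMM scaling turned the sign (-0.23). SPARC, a collagen-binding matrix protein, was at 1433 and 510 UPM (1.49), and at 397 and 578 (-0.54) in the 4B4 library. COL4A2, a basement-membrane collagen chain, was at 1191 and 448 UPM (1.41), and at 572 and 484 (0.24, not called). LOXL2, which crosslinks collagen, was at 686 and 225 UPM (1.61), and at 271 and 270 (0.00). TIMP1, a secreted inhibitor of matrix metalloproteinases, was at 2321 and 2044 UPM (0.18, not called), and at 1414 and 4468 (-1.66).

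Genes for folding in the endoplasmic reticulum, where secreted and membrane proteins mature, gave sums on both sides of the reference. Over all 19 listed the log2 ratio was 0.87 (0.71 to 1.03) in the control and -0.52 (-0.66 to -0.39) in the 4B4 library. The 4 tested reached the floor only in control members, so their being high there is no support for this. HSP90B1 was at 1514 UPM in control members and 475 in the reference (log2 ratio 1.67), and at 493 and 487 in the 4B4 library (0.02). HSPA5 was at 747 and 265 UPM (1.49), and at 235 and 271 (-0.21), and CANX at 646 and 135 (2.26), and at 150 and 137 (0.13). CALR was 0.47 in the control library, not called, and -0.76, called lower, in the 4B4 library. Above 90% the list's sum was 0.808% against 0.354% in the control library and 0.477% against 0.374% in the 4B4 library.

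**Figure D5:**
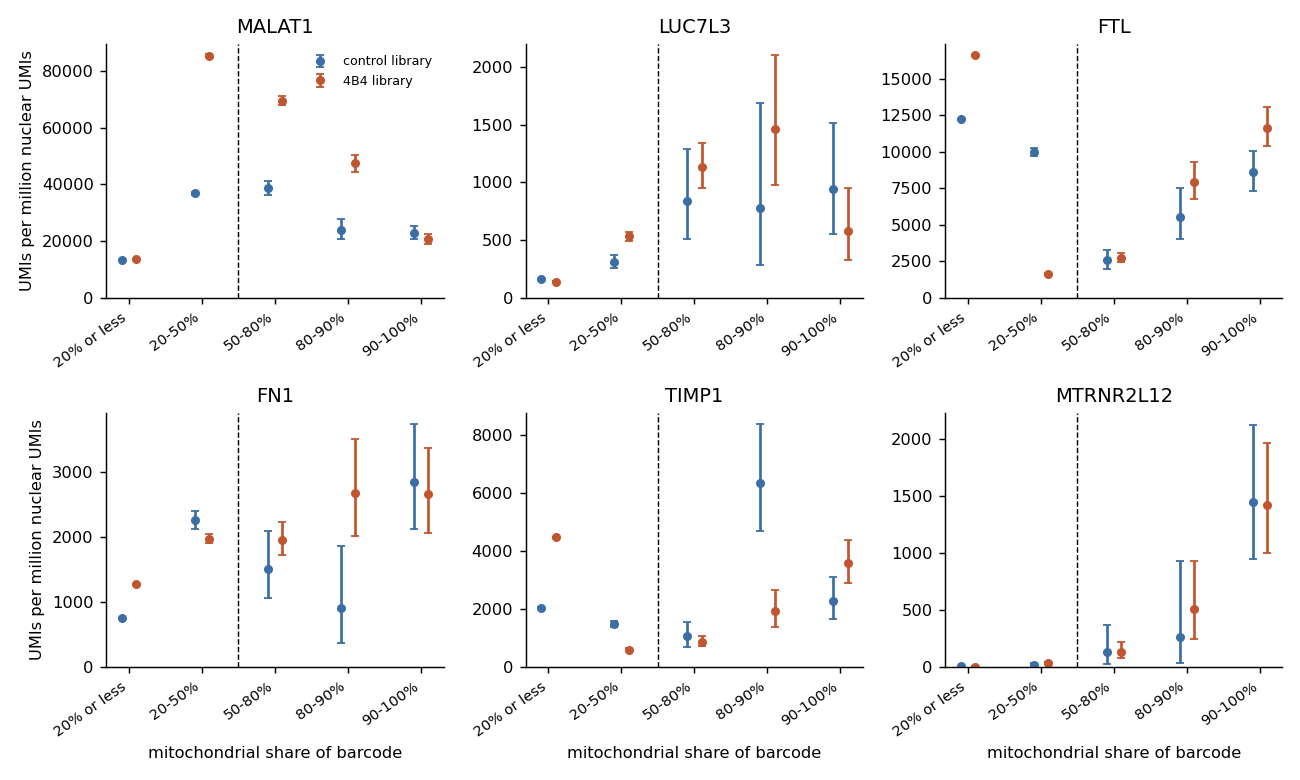
Levels of 6 genes in UMIs per 1000000 nuclear-encoded UMIs (vertical axes from 0) by range of mitochondrial share, with the reference at 20% or less, for the control (blue) and 4B4 (orange) libraries; bars are 95% counting intervals and the dashed line marks 50%. MALAT1 peaks between 20% and 80% in both libraries, FTL is lowest there in the 4B4 library, and MTRNR2L12 is highest above 90%.

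Lists for stress and the cell cycle held few genes that reached the floor. Heat shock genes took a smaller share of nuclear RNA in members of both libraries. The sum over all 15 was 0.270% against 0.423% in the control library (log2 ratio -0.65, -0.90 to -0.40). In the 4B4 library it was 0.184% against 0.367% (log2 interval -1.17 to -0.84). Of heat shock genes 3 were tested, and 2 in the control and 3 in the 4B4 library were lower, HSP90AA1 at -0.98 and -1.37. Of all tested genes 55% and 71.9% were lower. IER3, the one immediate early gene tested, was -0.15 and -0.64, and GDF15, the one ATF4 target, -0.31 and -1.21. Both were called lower in the 4B4 library. Over all 20 immediate early genes the summed log2 ratios were 0.02 (-0.21 to 0.25) and -0.72 (-0.88 to -0.56). Over all 20 listed ATF4 targets they were 0.06 (-0.32 to 0.41) and -0.68 (-0.91 to -0.45). These 2 sums were thus lower in 4B4 members only. None of the genes for p53 targets, the apoptosis machinery, S phase, or G2 and mitosis reached the floor. The summed log2 ratios of S phase genes were 0.14 (-0.27 to 0.52) and 0.09 (-0.23 to 0.40), and those of G2 and mitosis genes 0.01 (-0.34 to 0.35) and -0.28 (-0.67 to 0.07). For p53 targets they were 0.25 (-0.10 to 0.58) and 0.23 (0.01 to 0.44), and for the apoptosis machinery -0.59 (-1.02 to -0.19) and -0.31 (-0.52 to -0.10).

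The YAP and TEAD target list had a higher sum in members of both libraries, with log2 ratios of 1.35 (1.16 to 1.54) in the control and 1.05 (0.89 to 1.20) in the 4B4 library. Its 2 tested genes reached the floor only in control members and so could not be below the reference there. ANKRD1 was at 626 and 127 UPM (log2 ratio 2.30), from 31 UMIs in 14 barcodes, and ASAP1 at 706 and 280 (1.34). In the 4B4 library ASAP1 was 1.59 and ANKRD1 0.18, from 8 UMIs. Over members above 80% ASAP1 was -0.35 in the 4B4 library.

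Members carried the markers of the line. Of 17 mesenchymal markers, 15 had UMIs in control and 14 in 4B4 members, with sums of 1.22% of nuclear UMIs (reference 1.19%) and 0.736% (1.41%). Of the 8 tested, 3 were higher and 3 lower in the control library, and 1 higher and 6 lower in the 4B4 library. By the same rule 25.2% and 23.5% of all tested genes were higher, and 55% and 71.9% lower. The split of these few markers therefore says little about them in particular. Markers of other cell types were at or near 0: the 8 erythroid genes had no UMI in either set of members, the 12 immune genes had 1 and 4, the 8 epithelial genes 1 and 16, and the 8 endothelial and platelet genes 1 and 14, all from PECAM1. In the reference, erythroid and immune genes were also low, at 14.1 and 44.7 UPM in the control and 15.5 and 58.9 in the 4B4 library. Few of their UMIs would be expected at the members' depth, so these low counts do not set members apart from the reference. The epithelial UMIs in 4B4 members came from EPCAM (6), KRT7 (1) and CLDN4 (9), 0.00963% of nuclear UMIs against 0.00394% in the reference.

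Between the libraries, members were compared with members. Of 212 genes that reached the floor in members of either library, 13 (6.13%) were at least 2-fold higher and 26 (12.3%) lower in 4B4 members than in control members. In reference barcodes the same genes gave 1 (0.472%) and 3 (1.42%), but they were chosen on the members' levels, and levels in members rest on far fewer UMIs, so these counts cannot be set against each other. Of the 219 genes chosen on the reference alone, none was at least 2-fold higher and 25 (11.4%) were lower in 4B4 members, and in reference barcodes 1 (0.457%) was higher and none lower. The median of log2 ratios, 4B4 over control, over those 219 genes was -0.51 among members and 0.03 among reference barcodes. Members of the 2 libraries were also made up of different ranges, since 9.88% of control members and 22% of 4B4 members lay at 50 to 80%, and how far this sets the differences was not tested.

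The largest ratios toward 4B4 members were those of MKLN1, of a ubiquitin ligase complex (log2 ratio 2.48, 1.40 to 3.82), TENM4, a teneurin (2.27), PLCB1, a phospholipase C (1.96), BICD1, a dynein adaptor (1.74) and PHC2, a polycomb protein (1.38), all of which span over 100 kb and reached the floor only in 4B4 members. In reference barcodes these genes were between 0.11 and 0.37. MKLN1 was -0.21 over members above 90%. Among the largest toward control members were ANKRD1 (-3.70, and -1.58 in the reference), CANX (-2.10 and 0.03), SPARC (-1.85 and 0.18) and the tetraspanin CD63 (-1.78 and -0.14). Between the 2 sets of members, each of these reached the floor only in control members, so none could be higher in 4B4 members. The ratios named in either direction are descriptions. MALAT1 was 0.95 in members and 0.02 in reference barcodes.

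For TIMP1 the log2 ratio of 4B4 over control was 1.13 in reference barcodes and -0.72 (-1.04 to -0.38) in members. At 50 to 80% the 4B4 and control levels were 864 and 1048 UPM, with overlapping intervals (706 to 1046 and 678 to 1547). At 80 to 90% the 4B4 level was below the control level (1921 against 6332). Over 90% it was above it (3580 against 2285), though the intervals overlapped (2889 to 4386 and 1640 to 3100). In the control library 1 barcode at 80 to 90% held 18 of the 49 TIMP1 UMIs of that range, and 1 barcode above 90% held 13 of 41. ITGB1, the subunit that 4B4 blocks, was -1.30 (-1.84 to -0.76) in members and 0.24 in reference barcodes, from 53 and 72 UMIs in members. Against their own reference, ITGB1 was called higher in control members (1070 and 705 UPM, log2 ratio 0.60, but -0.24 under TMM scaling) and lower in 4B4 members (433 and 835, -0.95). SPP1, at 1.59 in reference barcodes, had 3 and 27 UMIs in members. HMOX1 had 1 and 9, SAA1 2 and 0, CDKN1A 5 and 7, and TMSB4X 0 and 11, so their ratios rest on few molecules.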

How the data were processed

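Per the submitters' processing notes, Cell Ranger 7.1.0, Seurat 5.0.1 and GRCh38 were used; what each did, and whether intronic reads were counted, is not given in the sources used here. The authors deposited raw UMI counts for 36601 genes, 1 matrix per library, with 3642 and 1759 barcodes. No barcode was removed here and no doublet caller was run. Counts were summed over the barcodes of a set, without MT- genes, and scaled to 1000000 nuclear-encoded UMIs. Genes needed 605 UPM, the level of 30 expected UMIs in the smaller member set, in members or reference of either library. Genes were called at a ratio of at least 2, and list members at 1.5 with the interval on the same side. With 1 library per group no test across samples was made. Intervals are exact Poisson (sums), Clopper-Pearson (shares) and conditional binomial (ratios), at 95%. Members and gene lists were chosen with earlier results of these data known. Named genes were the first 12 in each direction by the smaller of both libraries' ratios, among those that kept their sign under every alternative (leaving aside MT- genes, cytosolic ribosomal proteins and genes with clone names), at most 4 from each list, the 5 largest ratios in each direction between libraries, and a set of single genes; others named were chosen after their values were seen, and some genes that the rule names are not reported here. Gene spans and sequences came from GENCODE release 29, which matched 94.6% of the genes. The ratio computation was tested on simulated data. Python 3.11.15, numpy 2.4.6, scipy 1.17.1, pandas 2.3.3, matplotlib 3.10.9, R 4.3.3 and edgeR 4.0.16 were used. Alternatives covered the threshold, the reference, the weighting, the scaling and the floor.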

Additional observations from a re-analysis of the deposited data

Results flagged for a closer look

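ITGB1, the β1-integrin subunit, was called in opposite directions in the libraries when members were set against their own reference. Its log2 ratio was 0.60 in control members (1070 and 705 UPM, from 53 UMIs in members) and -0.95 in 4B4 members (433 and 835 UPM, from 72 UMIs). With 1 library per group the difference between the libraries was not tested.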

How the results depend on the processing

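No paired analysis was possible because each group has 1 library, and no library could be left out for the same reason. Counts of genes at a ratio of at least 2 moved with the setting, and the cause was not tested except where the setting tests more or fewer genes. Under TMM scaling 10 genes were higher in control members, 19 in 4B4 members and 8 in both, and 274, 298 and 272 lower. With each barcode weighing the same these were 31, 27 and 15 higher and 18, 18 and 6 lower. With members over 80% they were 30, 22 and 18 higher and 14, 9 and 2 lower. With members over 60%, 37 were higher in both, 48 lower in control members and 43 lower in both. Without the 5% of members with the most nuclear UMIs they were 33, 40 and 21 higher and 17, 123 and 16 lower, and 46 instead of 26 genes were lower in 4B4 than in control members. A floor of 15 expected UMIs, which tests more genes, gave 244, 300 and 204 higher and 133, 371 and 118 lower, and a floor raised 2-fold 18, 17 and 15 higher and 47, 118 and 47 lower. With genes chosen on the reference alone 4, 4 and 3 were higher, and 0 instead of 13 genes were higher in 4B4 than in control members, since genes that reach the floor only in members are then left out. With members of at least 200 detected genes 147 were lower in control members and 146 in both, and without ribosomal protein genes in the total 143 and 142. Against reference barcodes in the lowest 10% by nuclear UMIs 120 were lower in 4B4 members. The share of members fell to 0.203% and 2.30% among barcodes with at least 1000 detected genes, to 3.26% and 9.70% at 2000 UMIs, and in the 4B4 library to 11.1% at a threshold of 80%. Log2 ratios that changed sign follow. With each barcode weighing the same, in the 4B4 library, ASAP1 was -0.23, CALR 0.31, CDKN1A 0.13, HMOX1 0.15, HSPA8 0.12, TPI1 0.092 and the median of the YAP and TEAD list -0.78, and in the control library FTX was -0.12 and PLCB1 -1.26. With members over 80%, in the 4B4 library, ASAP1 was -0.35, CALR 0.53, ENO1 0.10, HSPA8 0.011, TMSB4X 0.42 and TPI1 0.020, and in the control library FTX was -1.29, PLCB1 -0.98 and TPI1 0.030. Under TMM scaling FN1 (4B4) was -0.23, ITGB1 (control) -0.24, PLCB1 (control) -0.23 and the YAP and TEAD list's median (4B4) -0.11. PLCB1 (control) was also -0.19 over 60% and -0.69 without the 5% of members with the most nuclear UMIs, and MKLN1 was -0.21 between libraries over 90%. Depth limits single genes most, since members above 90% had a median of 97 nuclear UMIs in each library. The 5 settings added after seeing the data were genes chosen on the reference alone at the same floor or at 100 UPM, the threshold of 90% between libraries, totals without the MTRNR2L genes and sets without shared barcodes.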
